A study of Mus musculus with 6 samples.

Results

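Dense stretches are runs of neighbouring open chromatin regions. The 74686 regions of the deposited count table, set by ATAC-seq, were sorted by position and joined wherever the gap between neighbours was at most 12500 bases, and every stretch holding 12 or more regions was kept. This gave 794 dense stretches with 14481 regions, out of 26120 stretches in all. Of the rest, 13127 stretches joined 2 to 11 regions (48006 regions in total) and 12199 regions stood alone. The choice used the positions of the regions and no counts. No source used here gives how the regions were set, so their positions may depend on peaks of these same libraries. The measured cells were OT1 cells, CD8 T cells with a transgenic T cell receptor for ovalbumin, purified on CD8 and CD45.1 out of tumors formed by B16-OVA-GP61, a mouse melanoma line. In the first group of 3 libraries the tumors also held SMARTA cells, CD4 T cells with a transgenic receptor for GP61. In the second group of 3 libraries no SMARTA cells were present. Both groups share the OT1 receptor, the CD45.1 marker and the tumor line, so the cells of every library follow 1 receptor and are not a natural mix of tumor-infiltrating T cells. Sorted cells were kept frozen until all samples had been collected. The labels give neither the age of the mice nor the day of sorting, and they do not tie a library to an animal, so a p-value covers the spread among these 6 libraries and that spread may be technical.

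In ATAC-seq a transposase cuts accessible DNA, and each open region marks a promoter, an enhancer or another site where nucleosomes are displaced. Enhancers of genes that define a cell type often lie close together, in clusters known as stretch enhancers or super-enhancers, whose usual definition joins neighbouring elements by distance and ranks them by a histone mark or cofactor signal. No histone mark or cofactor was measured here, so a dense stretch is a cluster of open regions and nothing more.

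Of the stretches described below, 7 promoters in 5 stretches are shown, to set the accessibility of single gene starts beside that of their stretch. They were chosen with their values known. Each line runs 5′ to 3′ on the gene's strand, from 250 bases before to 50 bases after the start, from RefSeq on GRCm38.p6. Capitals mark every match, on either strand, to the letters searched for each motif. The AP-1 motif was searched as TGANTCA. The RUNX motif was searched as TGTGGT. A long ETS motif was searched as CCGGAAGT. The motif of TCF1 and LEF1 was searched as CTTTGA. The NFAT motif was searched as GGAAAA, the E box as CAGCTG. The TATA motif, searched as TATAAA, and the CCAAT box were added after the sequences had been read.
Bcl2l11 first start (chr2:128125788-128126087, plus strand): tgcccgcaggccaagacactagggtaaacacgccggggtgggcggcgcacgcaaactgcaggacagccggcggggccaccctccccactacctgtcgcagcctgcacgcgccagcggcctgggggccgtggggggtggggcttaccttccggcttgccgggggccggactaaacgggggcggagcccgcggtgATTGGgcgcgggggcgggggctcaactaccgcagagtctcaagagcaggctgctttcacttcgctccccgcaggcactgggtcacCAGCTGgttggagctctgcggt
Bcl2l11 second start (chr2:128127325-128127624, plus strand): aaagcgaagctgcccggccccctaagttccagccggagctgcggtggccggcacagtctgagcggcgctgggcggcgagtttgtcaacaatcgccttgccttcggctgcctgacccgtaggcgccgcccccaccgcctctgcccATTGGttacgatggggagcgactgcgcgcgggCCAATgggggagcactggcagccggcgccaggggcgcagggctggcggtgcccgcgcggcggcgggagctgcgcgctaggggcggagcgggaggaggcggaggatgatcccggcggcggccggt
Rarg first start (chr15:102257473-102257772, minus strand): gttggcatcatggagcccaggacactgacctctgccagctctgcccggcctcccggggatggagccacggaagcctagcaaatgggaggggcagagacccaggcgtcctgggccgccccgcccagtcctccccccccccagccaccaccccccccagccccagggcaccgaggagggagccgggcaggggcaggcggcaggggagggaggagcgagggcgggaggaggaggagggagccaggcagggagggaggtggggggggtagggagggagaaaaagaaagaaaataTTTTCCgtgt
Rarg second start (chr15:102246451-102246750, minus strand): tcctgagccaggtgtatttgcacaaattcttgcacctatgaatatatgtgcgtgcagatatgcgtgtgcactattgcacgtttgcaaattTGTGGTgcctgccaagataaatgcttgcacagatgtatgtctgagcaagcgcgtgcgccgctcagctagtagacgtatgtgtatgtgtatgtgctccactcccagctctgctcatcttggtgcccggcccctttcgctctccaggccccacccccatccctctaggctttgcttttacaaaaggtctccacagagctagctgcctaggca
Sstr3 (chr15:78541357-78541656, minus strand): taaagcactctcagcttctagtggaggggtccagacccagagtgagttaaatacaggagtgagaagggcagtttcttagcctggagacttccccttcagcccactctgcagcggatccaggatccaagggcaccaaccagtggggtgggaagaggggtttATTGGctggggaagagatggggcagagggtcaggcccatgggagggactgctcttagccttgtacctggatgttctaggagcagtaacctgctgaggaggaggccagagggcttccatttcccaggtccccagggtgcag
Samd9l (chr6:3399522-3399821, minus strand): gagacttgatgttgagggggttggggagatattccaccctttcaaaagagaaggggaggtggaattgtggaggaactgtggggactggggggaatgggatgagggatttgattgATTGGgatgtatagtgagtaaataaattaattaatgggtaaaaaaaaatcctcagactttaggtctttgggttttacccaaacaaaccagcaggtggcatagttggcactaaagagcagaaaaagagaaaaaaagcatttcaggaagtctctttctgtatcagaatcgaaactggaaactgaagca
Btg1 (chr10:96616751-96617050, plus strand): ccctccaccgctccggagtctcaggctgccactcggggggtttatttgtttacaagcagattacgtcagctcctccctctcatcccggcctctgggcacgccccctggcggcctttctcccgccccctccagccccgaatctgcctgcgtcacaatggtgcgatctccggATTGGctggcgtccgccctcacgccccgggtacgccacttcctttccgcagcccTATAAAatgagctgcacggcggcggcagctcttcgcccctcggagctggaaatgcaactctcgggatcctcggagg

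Accessibility is given as CPM, counts scaled to the library's size, and folds are with over without SMARTA cells with the adjusted p of edgeR's quasi-likelihood test (Benjamini-Hochberg over all regions). Bcl2l11, which encodes the pro-apoptotic protein BIM, has a pair of starts in the stretch named for Acoxl. The first start holds 1 E box and 1 CCAAT, and its region fell, at 83.8, 78.1 and 77.2 CPM with SMARTA cells against 108, 95.6 and 101 CPM without (log2 fold −0.35, adjusted p = 0.0074). The second start holds 2 CCAAT matches, and its region did not pass the test (log2 fold 0.16, adjusted p = 0.12). Both are rich in G and C (71% and 74%), with 27 and 38 CG pairs, where the median over 32817 promoters of the same length is 7.

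Rarg encodes retinoic acid receptor gamma and also has a pair of starts. The second start, with 1 RUNX match and 10 CG pairs, rose (log2 fold 0.55, adjusted p = 0.0062). The first start, with 1 NFAT match and 12 CG pairs, did not pass (log2 fold −0.17, adjusted p = 0.57). The difference between the starts of one gene was not tested for either gene. Sstr3, a somatostatin receptor gene in the Il2rb stretch, has 1 CG pair and 1 CCAAT, and its region fell (log2 fold −1.73, adjusted p = 0.0023). Samd9l has 1 CG pair and 1 CCAAT, and Btg1 has 25 CG pairs, 1 TATA and 1 CCAAT, and both regions rose (log2 fold 0.52 and 0.24). The Samd9l start missed the threshold without library 3 of the group lacking SMARTA cells (adjusted p = 0.065). Among all promoters 37.4% hold CCAAT, 13.6% TATA, 16.3% the E box, 16.8% the RUNX letters, 23.3% the NFAT letters, 16% the TCF1 and LEF1 letters, 7.81% the AP-1 letters and 3.89% the longer ETS site. The ETS core GGAA, which the NFAT letters contain, stands in 96% of promoters and is not marked.

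The 794 dense stretches held 12 to 56 regions (median 16) and spanned 21.4 to 266.4 kb (median 68.95 kb). The median gap between neighbours was 3.18 kb. There were 373 stretches of 12 to 15 regions, 195 of 16 to 19, 157 of 20 to 29 and 69 of 30 or more. Regions at a gene start, meaning those that overlap the window of 250 bases before to 50 bases after a RefSeq gene start, made up 8.47% of dense regions (1192 of the 14066 outside chromosome 18, which the promoter table did not cover), against 19.2% of regions standing alone and 13.2% of all regions. A dense region lay inside the interval of a protein-coding gene in 64.9% of cases, against 62.8% for all regions. In 199 dense stretches outside that chromosome no region lay at a gene start, and 50 overlapped no protein-coding gene. Of 21883 protein-coding genes placed on GRCm38.p6, 1791 (8.18%) had a dense-stretch region inside, which is 12.3% of the 14534 genes with any region inside.

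Genes of T cell identity and receptor signalling were placed in dense stretches in 25 of 26 cases, against 29 of 38 effector cytokine and receptor genes, 15 of 30 regulators of cytokine and RNA response, 11 of 26 activation and exhaustion genes and 9 of 20 naive, memory, progenitor and homing genes. The identity genes include Cd3e, Cd3d and Cd3g, which encode chains of the T cell receptor complex, Cd8a and Cd8b1, the coreceptor of the sorted cells, Lck and Zap70, the proximal kinases, and Bcl11b, Runx3 and Ets1, factors of the T lineage. Of the 5 markers of the sorted cells, 5 were in dense stretches, while no B cell marker (of 5), no myeloid marker (of 7) and no fibroblast or endothelial marker (of 5) was. Of the 4 CD4 T cell markers 1 was in a dense stretch (Cd40lg), of the 7 melanocyte markers 1 (Pmel), and of the 3 NK markers 1 (Klrb1c). The sorted cells' own markers were thus in dense stretches more often than the other lists, a count with no test.

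Total counts were 16595779 to 27182809 per library. Library 2 with SMARTA cells had the fewest counts. On the second principal component libraries 1, 2 and 3 with SMARTA cells lay at −72.1, 89.1 and −36.6. Those without lay at 17.7, −0.8 and 2.7, so libraries 1 and 2 with SMARTA cells stood far out on opposite sides. Counts of calls are also given without library 2, and as a range without any other library. Summed marker levels overlapped between the groups for the sorted cells (705 to 777 CPM with SMARTA cells and 691 to 756 CPM without), CD4 T cells (160 to 184 and 146 to 165 CPM), B cells (92.8 to 113 and 106 to 131 CPM), myeloid cells (63.6 to 75.3 and 67.4 to 70.2 CPM) and NK cells (12.9 to 20.8 and 18.7 to 28.7 CPM). The fibroblast and endothelial list was 115 to 130 CPM with SMARTA cells and 171 to 185 CPM without, with most of the difference at Pecam1 (86, 77.1 and 77.2 CPM against 136, 126 and 139 CPM), while Col1a1, Pdgfra and Cdh5 overlapped between the groups. The melanocyte list was 265 to 299 and 248 to 265 CPM. Their part in the results was not tested. Regions were found at 4 of 4 CD4 T cell, 4 of 5 B cell, 4 of 7 myeloid, 3 of 7 melanocyte, 2 of 3 NK and 4 of 5 fibroblast or endothelial markers, and Ms4a1, Lyz2, Adgre1, C1qa, Dct, Tyr, Sox10, Tyrp1, Ncr1 and Col1a2 had none. In cells measured in bulk, fewer cells with a site open and less opening per cell cannot be told apart.

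Each region and each stretch was compared between the groups, and a result with an adjusted p under 0.05 is called opened where accessibility was higher with SMARTA cells and closed where it was lower. Among dense regions 741 of 14481 (5.12%) opened and 1640 (11.3%) closed. Over all 74686 regions 4.68% opened and 10.4% closed, so the share of called regions in dense stretches was close to that of the whole series. The median log2 fold was −0.01 in dense regions and 0.01 over all regions. By summed counts 54 dense stretches (6.80%) opened and 70 (8.82%) closed, against 4.41% opened and 8.58% closed among all 26120 stretches. Stretches of 2 to 11 regions opened in 5.76% and closed in 9.4% of cases, and single regions in 2.81% and 7.68%. Median log2 CPM was 7.88 for dense sums, 4.66 for stretches of 2 to 11 and 1.50 for single regions. The part of this depth in the shares was not tested. The median log2 fold was 0.02 over dense stretches and 0.03 over all stretches. The groups did not overlap in 34.4% of dense stretches and in 34.4% of all stretches. Leaving out library 2 with SMARTA cells gave 85 opened and 59 closed dense stretches, and 1045 opened and 1666 closed dense regions. Leaving out any other single library gave 17 to 51 opened and 27 to 103 closed dense stretches.

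The split of dense stretches into opened and closed depended on the scaling. It was 53 and 64 with RLE size factors, 35 and 97 with total-count scaling, 30 and 69 with factors computed on the summed table, and 24 and 114 with offsets that follow accessibility (loess). Opened stretches were therefore 43.5% of called dense stretches under the scaling used throughout and 17.4% under loess. All 70 closed stretches were also among those closed under total-count and loess scaling. All 24 opened stretches of the loess scaling and all 35 of the total-count scaling were among the 54. Under total-count and loess scaling the median log2 fold over dense stretches was lower, at −0.02 and −0.05 against 0.02. These overlaps were therefore largely set in advance and say little about single calls. RLE size factors kept 64 of the 70 closed and 53 of the 54 opened stretches. Factors computed on the summed table kept 67 and 30.

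Changes of whole stretches were modest in size. The 70 closed stretches had log2 folds between −1.51 and −0.25 (median −0.48), and 4 of them changed at least 2-fold. The 54 opened stretches had log2 folds between 0.21 and 0.69 (median 0.32), and 0 reached 2-fold. Closed stretches of 2 to 11 regions had a median of −0.98 and closed single regions a median of −1.45. The median SE was 0.101 for closed dense stretches, 0.193 for closed stretches of 2 to 11 and 0.288 for closed single regions. A larger SE needs a larger fold for a call, and its part in these medians was not tested. Single closed regions inside dense stretches had a median log2 fold of −1.30, and opened ones 0.73. Among the 69 stretches of 30 or more regions edgeR called 0 opened (1 at an unadjusted p under 0.05, 0 with DESeq2) and 2 closed (2.90%), while stretches of 12 to 15 regions opened in 9.92% and closed in 9.65% of cases.

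**Figure D1:**
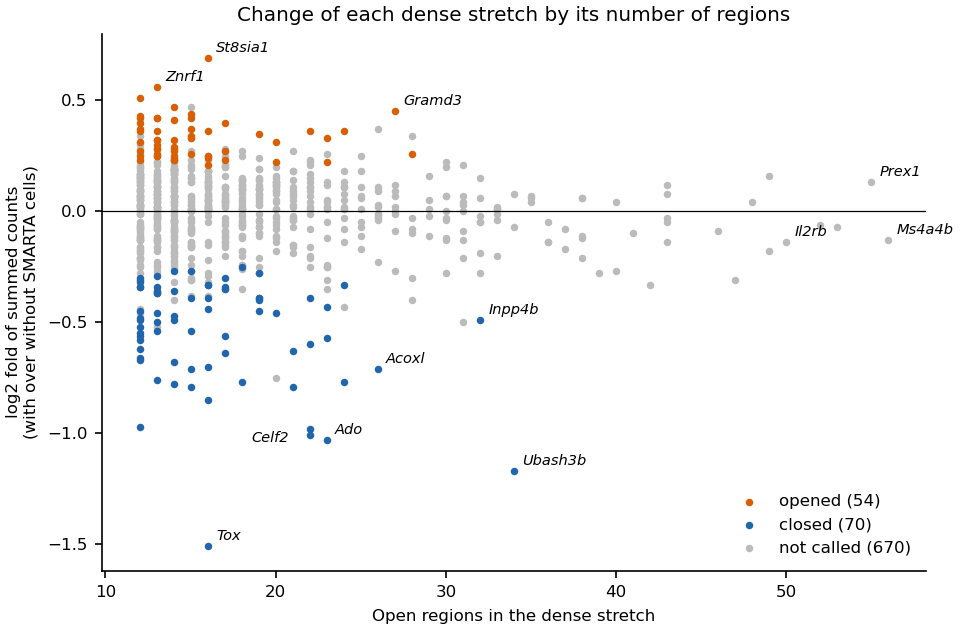
Log2 fold of summed counts (with over without SMARTA cells, y axis) against the number of open regions (x axis) for the 794 dense stretches. The 54 opened stretches reach 0.69 at St8sia1, the 70 closed ones reach −1.51 at Tox, and of the 69 stretches of 30 or more regions Ubash3b and Inpp4b are the 2 called.

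The stretch with the largest change covered 16 regions over 69.8 kb inside Tox, which encodes a nuclear factor known for its part in exhausted CD8 T cells (chr4:6834301-6904057). It had 38.6, 37.1 and 34.2 CPM with SMARTA cells, against 115, 105 and 92.9 CPM without them. All 3 libraries with SMARTA cells were below all 3 without. The log2 fold was −1.51 (SE 0.0958, adjusted p = 0.00011). All 16 regions closed one by one, with log2 folds of −3.43 to −0.57 (median −1.90), and none lay at a gene start. The region at the beginning of the stretch, with the smallest p, had 0.917, 0.782 and 0.636 CPM with SMARTA cells and 7.82, 7.04 and 5.50 CPM without. A peak stood there in 0 of 3 peak lists with SMARTA cells and in 3 of 3 without. The lists come from the same libraries and are no separate evidence. This region may have entered the count table, and so the stretch, through the group without SMARTA cells. The most accessible region, 67.8 kb further on, had 15.5, 14 and 14 CPM against 18.8, 22.3 and 23.5 CPM (log2 fold −0.57, adjusted p = 0.032). It missed the threshold when library 3 with SMARTA cells, or library 2 or 3 without them, was left out, with adjusted p of 0.10, 0.12 and 0.15, and with a replicate block (adjusted p = 0.069).

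Ubash3b encodes STS-1, a phosphatase that restrains T cell receptor signalling. Its stretch held 34 regions over 95 kb (chr9:41098981-41193989) and had 178, 128 and 138 CPM with SMARTA cells, against 311, 339 and 348 CPM without. The groups did not overlap, and the log2 fold was −1.17 (SE 0.112, adjusted p = 0.00036). Of its regions 24 closed, 0 opened, and all 34 log2 folds were below 0 (−3.42 to −0.13). The change was uneven along the stretch. The 11 regions closed within its first 18.3 kb included the largest fold (−3.42, 13.6 kb in), while the most accessible region, with 28.4, 17 and 22.9 CPM against 31.4, 34.5 and 35.3 CPM, stood at the threshold (log2 fold −0.57, adjusted p = 0.050) and was not called. It passed under total-count and loess scaling, with DESeq2, with a filter at a mean count of 20 and without library 1 with SMARTA cells (adjusted p of 0.014 to 0.049).

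The stretch named for Acoxl, an acyl-CoA oxidase-like gene, also covers Bcl2l11 and held 26 regions over 115 kb (chr2:128060967-128175996). It had 309, 243 and 282 CPM with SMARTA cells and 487, 432 and 441 CPM without. The groups did not overlap (log2 fold −0.71, SE 0.0900, adjusted p = 0.0012). Of its regions 18 closed and 0 opened. The region with the smallest p lay inside Acoxl, 31.1 kb from the first one, at 3.82, 1.44 and 1.68 CPM against 15.3, 15.9 and 15.7 CPM (log2 fold −2.76). The most accessible region was the first Bcl2l11 start shown above, with a log2 fold of −0.35, while the 17 other closed regions had log2 folds of −2.76 to −0.87. The difference between them was not tested.

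In the Celf2 stretch, which lies over a regulator of RNA splicing and holds 22 regions (chr2:6534880-6604294), fewer regions were called. The sums were 33.8, 39.5 and 38.4 CPM with SMARTA cells and 73.3, 81.5 and 70.5 CPM without (log2 fold −1.01, SE 0.0959, adjusted p = 0.00035). Of 22 regions 6 closed, 0 opened, and the median log2 fold over regions was −0.29. Its most accessible region was also the one with the smallest p, with 3.06, 1.56 and 2.66 CPM against 16.3, 15.6 and 15.7 CPM (log2 fold −2.69, adjusted p = 0.00027). A second dense stretch over Celf2, of 22 regions from chr2:6642315-6733819, had 294, 228 and 299 CPM against 264, 264 and 268 CPM and was not called (log2 fold 0.04, adjusted p = 0.80). The difference between the stretches was not tested.

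A stretch of 12 regions with no protein-coding gene over it or within 100 kb (chr13:37610489-37658464) had 52.9, 49.9 and 55 CPM with SMARTA cells and 84.4, 81.9 and 85.1 CPM without (log2 fold −0.67, SE 0.0743, adjusted p = 0.00061). Here 6 regions closed. The Gipc2 stretch (18 regions, chr3:152089193-152166258), over a PDZ-domain protein gene, had 91.8, 77.8 and 79.6 CPM against 130, 154 and 141 CPM (log2 fold −0.77, adjusted p = 0.00076). The groups were apart in both, and in Gipc2 the most accessible region was not called (log2 fold −0.24, adjusted p = 0.39) while a region 38.1 kb in fell by 2.80 on the log2 scale.

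The Spock2 stretch (12 regions, chr10:60106779-60171695), over the gene of a secreted proteoglycan, had 61.8, 55.9 and 53.8 CPM with SMARTA cells and 83.5, 94.2 and 92.5 CPM without (log2 fold −0.66, adjusted p = 0.0012). The region with the smallest p in it lay at the start of Gm51802, an uncharacterised gene, and had 7.59, 3.19 and 5.16 CPM against 19.8, 26.9 and 26 CPM (log2 fold −2.18). The stretch named for Chrna1, a muscle acetylcholine receptor gene, reaches Wipf1, whose product binds the actin regulator WASP (15 regions, chr2:73529157-73605410). It had 37.4, 42.8 and 42.2 CPM against 65.6, 73.7 and 60.3 CPM (log2 fold −0.71, adjusted p = 0.0023). Its most accessible region is the Wipf1 start, with a log2 fold of −0.63 (adjusted p = 0.039). That call was lost when any library other than number 2 with SMARTA cells was left out (adjusted p of 0.051 to 0.16) and with a replicate block (adjusted p = 0.080).

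**Figure D2:**
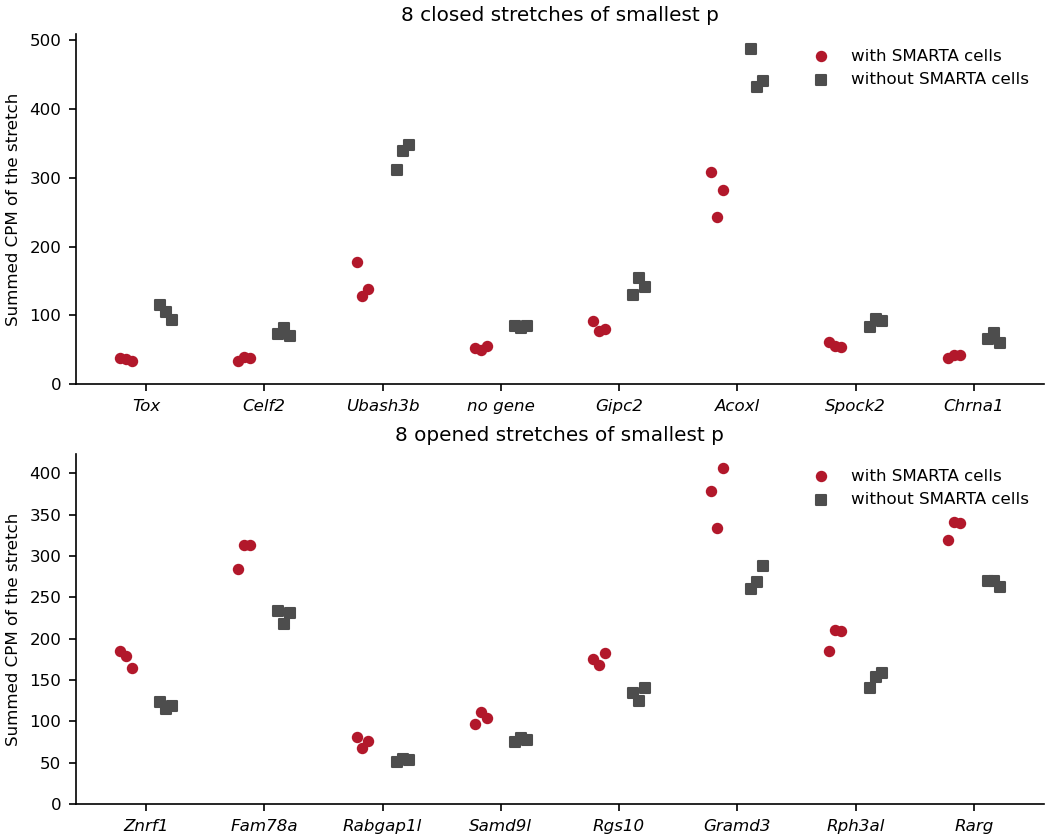
Summed CPM (y axis) of the 8 closed and the 8 opened dense stretches of smallest p (x axis, named by gene), with 1 symbol per library, 3 with SMARTA cells (circles) and 3 without (squares). The groups do not overlap in any of the 16 stretches, as the choice of these stretches required, and Tox has the largest fold, at 34.2 to 38.6 CPM against 92.9 to 115 CPM.

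The opened stretch with the smallest p held 13 regions over 45.2 kb inside Znrf1, a ubiquitin ligase gene (chr8:111551007-111596176). It had 185, 179 and 165 CPM with SMARTA cells, against 124, 115 and 119 CPM without. All libraries with SMARTA cells were higher, and the log2 fold was 0.56 (SE 0.0689, adjusted p = 0.00098). Of its regions 8 opened and 0 closed. The region with the smallest p had 7.28, 8.78 and 8.08 CPM against 2.44, 2.27 and 3.43 CPM (log2 fold 1.56), and the most accessible one 64.7, 65.9 and 59 CPM against 49.8, 43.4 and 45 CPM (log2 fold 0.46, adjusted p = 0.0059).

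Gramd3 encodes a GRAM-domain protein, and its stretch of 27 regions over 118 kb on chromosome 18 held 13 opened regions, the most of any dense stretch, and 0 closed ones. It had 379, 334 and 406 CPM with SMARTA cells and 260, 269 and 288 CPM without (log2 fold 0.45, SE 0.0801, adjusted p = 0.0063). The opened regions began 40.2 kb into the stretch, and 5 of them lay from 113 to 118 kb, with log2 folds of 0.71 to 1.11. The call on the most accessible region (log2 fold 0.30, adjusted p = 0.043) did not hold under total-count scaling (0.26, adjusted p = 0.058) or loess scaling (0.16, adjusted p = 0.30) or with DESeq2 (adjusted p = 0.12), nor when any library other than number 2 with SMARTA cells was left out (adjusted p of 0.11 to 0.12).

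The stretch over Fam78a and Nup214, a nuclear pore gene (15 regions, chr2:32029521-32084957), had 284, 314 and 313 CPM with SMARTA cells and 233, 218 and 231 CPM without (log2 fold 0.42, adjusted p = 0.0036), with 5 opened regions. The Samd9l stretch (12 regions, chr6:3367005-3399716), over an interferon-inducible gene that restrains growth, had 97.4, 112 and 104 CPM against 74.8, 79.9 and 77.9 CPM (log2 fold 0.43, adjusted p = 0.0058). All 12 of its regions had a log2 fold above 0, yet 2 passed the test, among them the Samd9l start printed above with 33.3, 40.9 and 37.5 CPM against 24.6, 27.6 and 25.9 CPM. Without regions near gene boundaries the Samd9l sum was not called (log2 fold 0.29, adjusted p = 0.15).

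The Rgs10 stretch (12 regions, chr7:128344949-128418331), over a regulator of G-protein signalling, had 176, 168 and 183 CPM with SMARTA cells and 135, 125 and 140 CPM without (log2 fold 0.40, adjusted p = 0.0060). Its 2 opened regions lay 37.0 and 38.7 kb in, within the gene, and the Rgs10 start was not called (log2 fold 0.27). The Rph3al stretch (14 regions, chr11:75913878-76000164), over a gene of regulated exocytosis, had 185, 211 and 210 CPM against 141, 154 and 159 CPM (log2 fold 0.41, adjusted p = 0.0077), with 6 opened regions. The stretch over Rarg and Itgb7, the integrin chain of gut homing (14 regions, chr15:102203301-102263417), had 320, 341 and 340 CPM against 270, 270 and 263 CPM (log2 fold 0.32, adjusted p = 0.0078). The Rarg sum reached an adjusted p of 0.050 without library 3 of the group lacking SMARTA cells.

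Rabgap1l, a gene of a Rab GTPase-activating protein, carried dense stretches that moved in opposite directions. A stretch of 12 regions inside it (chr1:160286755-160309365) opened, at 80.8, 68.5 and 76.8 CPM with SMARTA cells and 50.9, 54.9 and 53 CPM without (log2 fold 0.51, SE 0.0856, adjusted p = 0.0048). A stretch of 15 regions further along (chr1:160743261-160812857), of which 12 lay in the gene, closed, at 135, 109 and 121 CPM against 156, 156 and 166 CPM (log2 fold −0.39, SE 0.0829, adjusted p = 0.015). Of 33 protein-coding genes with regions in more than 1 dense stretch, it was the 1 gene with both an opened and a closed stretch, and 11 of the 33 had any called stretch.

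Some stretches held opened and closed regions side by side. Among the 794 dense stretches 303 had closed but no opened regions, 130 had opened but no closed regions, 256 had both and 105 had neither. Of all dense regions 5.12% opened and 11.3% closed, so a stretch of many regions can hold both kinds where calls are scattered. Whether 256 differs from that was not tested. The Tagap stretch (27 regions, chr17:7863766-7945940), over a gene of activated T cells, had 421, 343 and 407 CPM with SMARTA cells and 365, 451 and 433 CPM without, with overlapping groups (log2 fold −0.09, adjusted p = 0.57). Inside it, 5 regions closed between 7.28 and 24.6 kb from the first region, with log2 folds of −2.21 to −1.09, and 4 opened between 42.6 and 64.3 kb, with log2 folds of 0.65 to 1.29. The strongest closed region had 6.36, 3.19 and 4.42 CPM against 17.4, 25.7 and 21.5 CPM.

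Btg1 encodes an antiproliferative protein of quiescent lymphocytes, and its stretch of 16 regions (chr10:96565334-96628749) also held both kinds. Regions 0 to 15.9 kb from the first one and another at 39.8 kb closed (4 in all, log2 folds −1.28 to −0.94), and 5 from 37.0 to 56.2 kb opened (0.24 to 1.16), including the Btg1 start at 158, 185 and 154 CPM with SMARTA cells against 140, 142 and 139 CPM without. The sum was 344, 326 and 322 CPM against 312, 309 and 318 CPM and was not called (log2 fold 0.08, adjusted p = 0.41).

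Itpr1, a calcium channel of the endoplasmic reticulum, had 4 opened and 5 closed regions among 25 (chr6:108401368-108510631), and here both kinds alternated. Between 100 and 103 kb from the first region, regions at 100, 102 and 103 kb opened (log2 folds 1.16, 0.55 and 1.24) and the one at 101 kb closed (−1.13). The sum was 181, 152 and 162 CPM with SMARTA cells and 182, 139 and 151 CPM without (log2 fold 0.07, adjusted p = 0.69). Ptk2b, which encodes the tyrosine kinase PYK2, had 5 opened and 4 closed regions among 30, and a sum of 455, 366 and 431 CPM against 370, 456 and 452 CPM (log2 fold −0.03, adjusted p = 0.88).

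**Figure D3:**
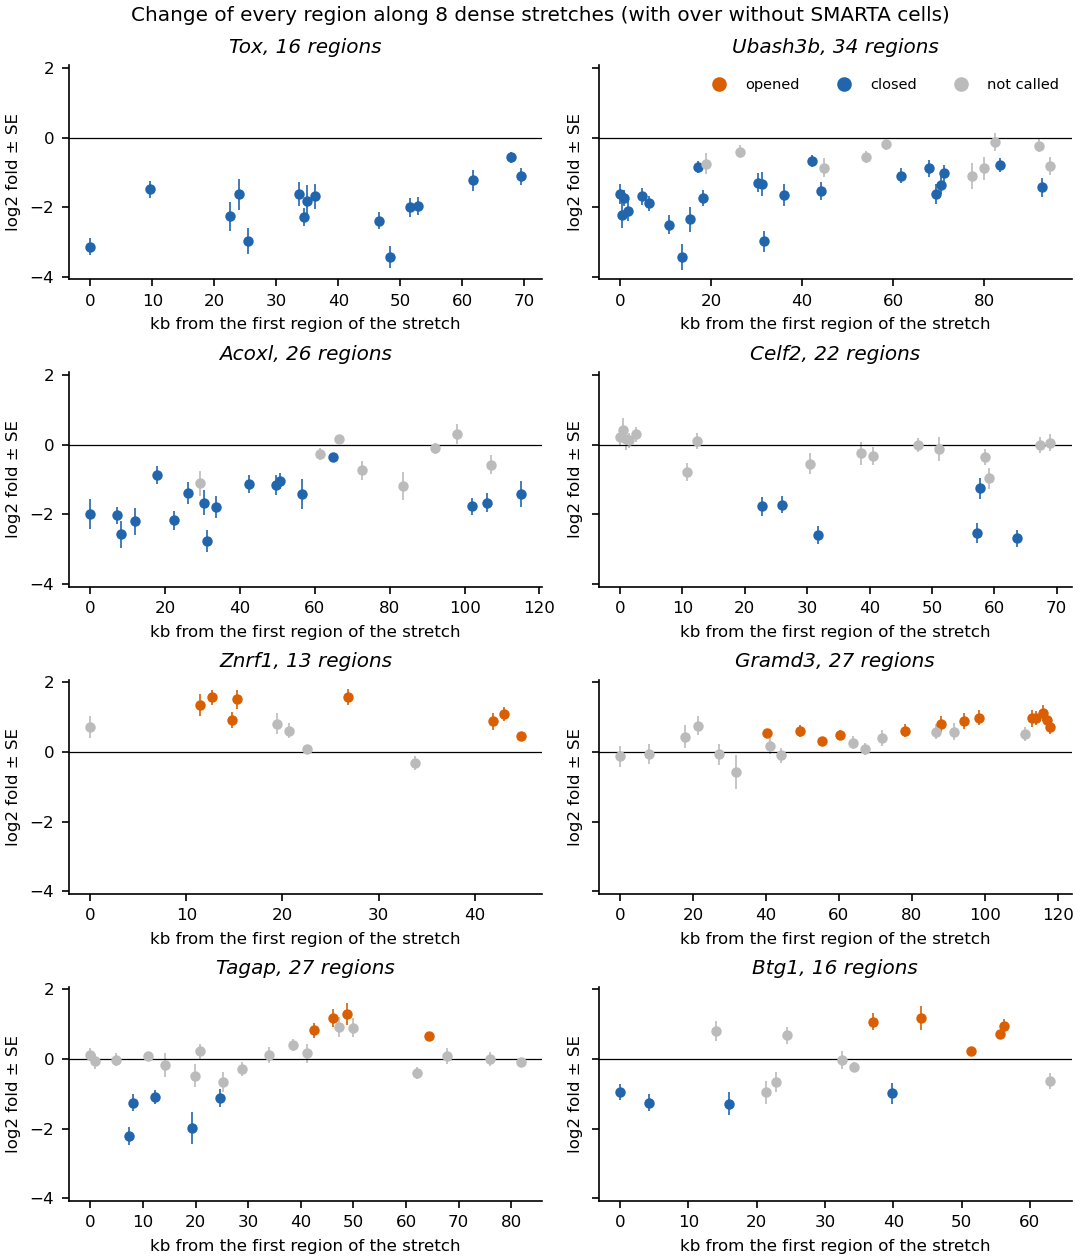
Log2 fold with its SE (y axis, with over without SMARTA cells) of every region along 8 dense stretches, by distance in kb from the first region (x axis), with opened, closed and uncalled regions coloured. All 16 Tox regions closed, 24 of 34 Ubash3b regions closed, 8 of 13 Znrf1 regions opened, and Tagap closed between 7.28 and 24.6 kb and opened between 42.6 and 64.3 kb.

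Of the 8 stretches with the most regions edgeR called 0 by its sum (1 higher and 1 lower at an unadjusted p under 0.05, 0 with DESeq2). The stretch over the Ms4a4 and Ms4a6 genes, which encode membrane proteins, had 56 regions (log2 fold −0.13, adjusted p = 0.50). Prex1, a Rac exchange factor, had 55 (0.13, adjusted p = 0.19), Mbnl1, a splicing regulator, 52 (−0.06, adjusted p = 0.67), Ptprc, which encodes CD45, 49 (−0.18, adjusted p = 0.31), Nfic and its neighbours 49 (0.16, adjusted p = 0.085) and the Gimap GTPase cluster 48 (0.04, adjusted p = 0.65). Over all 8 stretches 0 to 4 regions opened and 0 to 10 closed. The Nfic sums did not overlap, at 1220, 1250 and 1190 CPM with SMARTA cells and 1070, 1130 and 1090 CPM without. Nor did those of Prex1, at 913, 844 and 920 CPM against 789, 842 and 820 CPM. Sums of the groups were apart in 34.4% of all dense stretches. Ptprc passed the threshold without library 1 with SMARTA cells (log2 fold −0.32, adjusted p = 0.043).

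The stretch named for Dad1 and Abhd4 had 53 regions, of which 44 lay in the annotated interval of Tcra, the T cell receptor alpha locus. Its sums were 941, 845 and 928 CPM with SMARTA cells and 951, 932 and 960 CPM without, with overlapping groups (log2 fold −0.07, adjusted p = 0.51). Among 17 regions over joining segments 0 opened and 0 closed by edgeR, 0 at an unadjusted p under 0.05 and 0 with DESeq2, with log2 folds of −0.23 to 0.25 (median 0.07). A region over the constant segment Trac closed (15.6, 12.6 and 17.2 CPM against 24.8, 25.2 and 26 CPM, log2 fold −0.74), another closed region lay 0.27 kb past it, and the last of the 3 closed regions lay further on, 121 kb from the first region. The receptor of OT1 cells is a transgene, and whether reads of its segments were counted here was not tested.

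Il2rb encodes a chain shared by the IL-2 and IL-15 receptors, and its stretch of 50 regions (chr15:78420488-78632363) also spans Rac2, Cyth4 and Sstr3. It held 10 closed and 4 opened regions. Its sums were 899, 863 and 952 CPM with SMARTA cells and 978, 1010 and 1010 CPM without, lower in all 3 libraries but not called (log2 fold −0.14, SE 0.0582, adjusted p = 0.14). The region with the smallest p had 10.1, 3.37 and 8.35 CPM against 45.2, 37.1 and 37.2 CPM (log2 fold −2.44, adjusted p = 0.00082). The most accessible region had 88.3, 86.1 and 88.1 CPM against 89.2, 91.2 and 90 CPM and was not called.

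Lists of T cell genes were counted by stretch, and their calls are to be read against the 6.80% opened and 8.82% closed among all dense stretches. Of the 21 stretches over T cell identity genes edgeR called 0 opened (1 at an unadjusted p under 0.05, 0 with DESeq2) and 1 closed, the one over Ikzf3 (Aiolos, a lymphoid transcription factor), at 336, 295 and 294 CPM with SMARTA cells and 345, 384 and 375 CPM without (log2 fold −0.25, adjusted p = 0.049). The median log2 fold over these stretches was 0.04, where all dense stretches had 0.02. Satb1, a chromatin organiser, was just short of the threshold (log2 fold 0.28, adjusted p = 0.053), and the Cd8b1 and Cd3e stretches had log2 folds of −0.11 and 0.11 (adjusted p = 0.41 and 0.29).

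Among 12 stretches over activation and exhaustion genes edgeR called 0 opened (0 at an unadjusted p under 0.05, 0 with DESeq2) and 4 closed (median log2 fold −0.26), where all dense stretches opened in 6.80% and closed in 8.82% of cases. Besides Tox these included Pdcd1, which encodes the inhibitory receptor PD-1, at 303, 225 and 281 CPM with SMARTA cells and 448, 390 and 371 CPM without (log2 fold −0.58, SE 0.110, adjusted p = 0.0087). Another was Prdm1, the gene of Blimp-1, a transcriptional repressor of differentiated lymphocytes, at 273, 227 and 255 CPM against 326, 334 and 290 CPM (log2 fold −0.33, adjusted p = 0.030). Nfatc1, a factor downstream of calcium, had a closed stretch of 12 regions (log2 fold −0.45, adjusted p = 0.032) and a second of 26 regions that was not called (−0.02, adjusted p = 0.92). Havcr2, which encodes TIM-3, and Ctla4, another inhibitory receptor, were not called (log2 fold −0.25 and −0.28, adjusted p = 0.36 and 0.30).

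Among 11 stretches over naive, memory, progenitor and homing genes 1 opened and 1 closed (median log2 fold −0.17), which is close to the 6.80% and 8.82% of all dense stretches. S1pr1, the receptor that guides T cells out of tissues, rose to 269, 272 and 242 CPM with SMARTA cells, against 150, 221 and 195 CPM without (log2 fold 0.47, SE 0.122, adjusted p = 0.034). The stretch over Myb, a factor of stem-like CD8 T cells, closed (log2 fold −0.63, SE 0.117, adjusted p = 0.0079). It had 225, 162 and 202 CPM with SMARTA cells, against 269, 310 and 330 CPM without. In it 11 of 21 regions closed, and of the 3 regions inside Myb itself 1 closed. Ccr7, Bach2 and Bcl2 stretches were not called.

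Among 24 stretches over effector and cytokine receptor genes edgeR called 0 opened (0 at an unadjusted p under 0.05, 0 with DESeq2) and 2 closed (3 with DESeq2). The closed count is close to the 8.82% of all dense stretches, of which 6.80% opened, and the median log2 fold was −0.12. One spans Prf1, the perforin gene, with Pald1 (log2 fold −0.39, adjusted p = 0.030), where the 2 regions inside Prf1 itself were not called, and the other Tnfrsf9, which encodes the costimulatory receptor 4-1BB (log2 fold −0.39, adjusted p = 0.034). The Ifng stretch, over interferon gamma, held 6 closed of 28 regions and missed the threshold as a sum (log2 fold −0.40, adjusted p = 0.067), as did Tbx21, which encodes T-bet (−0.28, adjusted p = 0.082).

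Among 15 stretches over regulators of cytokine and RNA response 2 opened and 3 closed (median log2 fold −0.21), where all dense stretches opened in 6.80% and closed in 8.82% of cases. Both opened stretches cover genes that restrain TGF-beta signalling. The stretches over Smad3 and Tgfbr2, other TGF-beta genes of the list, were not called (log2 fold 0.22 and 0.09, adjusted p = 0.15 and 0.58). Ski had 514, 525 and 530 CPM with SMARTA cells and 420, 442 and 444 CPM without (log2 fold 0.27, SE 0.0563, adjusted p = 0.015). Smad7 had 382, 389 and 390 CPM against 315, 318 and 334 CPM (log2 fold 0.26, SE 0.0572, adjusted p = 0.016). The Ski and Smad7 calls were not followed one by one through the alternative settings. Of the 54 opened dense stretches 24 stayed called under loess scaling. The closed ones cover Ubash3b, the neighbours Stat3 and Stat5a, which encode transducers of cytokine signals (log2 fold −0.28, adjusted p = 0.037), and Il10ra, the IL-10 receptor chain, at 172, 104 and 167 CPM against 215, 228 and 211 CPM (log2 fold −0.56, adjusted p = 0.041), where the 2 regions inside Il10ra itself were not called.

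Most called regions lay in stretches not called as a whole, which were 670 of the 794 dense stretches. Of the 1640 closed regions 1185 lay in stretches that were not called, 438 in closed stretches and 17 in opened ones. Of the 741 opened regions 541 lay in stretches that were not called, 189 in opened and 11 in closed stretches. In closed stretches the median share of regions that closed was 33.3%, and in opened stretches the median share that opened was 20%. At least 50% of regions closed in 15 stretches, among them Tox, Ubash3b, Acoxl, Ado (13 of 23), Myb, Sema7a, Cd83 and Mmd, and at least 50% opened in 2, St8sia1 (9 of 16) and Znrf1. These and the next names were chosen after their values were seen. The stretch whose nearest gene is Ado, a thiol dioxygenase gene, lay on chromosome 10 and had 146, 95.3 and 115 CPM with SMARTA cells and 197, 283 and 248 CPM without (log2 fold −1.03, adjusted p = 0.0032). St8sia1, a sialyltransferase gene, had 283, 194 and 270 CPM against 134, 157 and 171 CPM (log2 fold 0.69, adjusted p = 0.010). Inpp4b, a phosphoinositide phosphatase gene and the only called stretch of 30 or more regions besides Ubash3b, had 181, 131 and 157 CPM against 217, 205 and 234 CPM (log2 fold −0.49, adjusted p = 0.017), with 13 of 32 regions closed.

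The log2 folds of the regions within a stretch had a median SD of 0.504. Log2 folds of neighbouring regions correlated with Pearson's r = 0.33 over 13687 pairs, which share their libraries. The value was 0.55 at gaps of up to 1 kb, 0.32 from 1 to 5 kb and 0.24 above 5 kb. A closed region's next neighbour was closed in 28.2% of cases (443 of 1573) and opened in 38 of them. Of all dense regions 11.3% closed and 5.12% opened. The share of closed next neighbours was 39.8% at gaps of up to 1 kb, 25.4% from 1 to 5 kb and 26.3% above 5 kb. How much of it comes from a few stretches with many closed regions was not tested.

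Within a stretch, the most accessible regions differed from the rest in their calls. Ranked by mean accessibility over all 6 libraries, the most accessible region of each stretch opened in 14.6% and closed in 2.90% of 794 cases. Regions of rank 2 and 3 opened in 8.63% and closed in 6.23% of cases. The other 12099 regions opened in 4.03% of cases and 1518 of them closed. The median log2 fold was 0.13 at the top rank, 0.07 at ranks 2 and 3 and −0.05 from rank 4 on. Depth differs along the ranks as well, since accessible regions hold more counts, and its part in the calls was not tested. Calls by rank were counted under the scaling used throughout alone. Loess offsets follow accessibility, and whether the order of the ranks holds under them was not tested. A like order was seen over the whole series, where the most accessible 20% of regions opened in 9.77% and closed in 2.77% of cases, and the least accessible 20% in 1.22% and 14%. In dense stretches the same classes gave 9.66% and 4.37%, and 0.927% and 16.3%. Regions at gene starts opened in 6.12% and closed in 3.02% of cases in dense stretches, and in 6.48% and 2.34% over all regions. Other dense regions opened in 4.94% and closed in 12.1%, against 4.36% and 11.6% over the series.

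**Figure D4:**
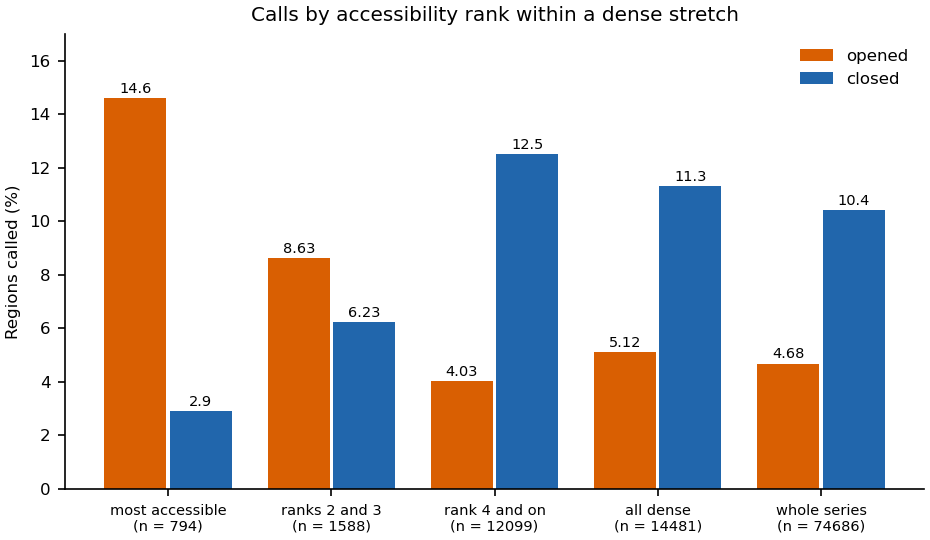
Percent of regions opened and closed (y axis) by accessibility rank within a dense stretch, for all dense regions and for the whole series (x axis, number of regions in parentheses). The most accessible region of a stretch opened in 14.6% and closed in 2.90% of cases, and of the 12099 regions from rank 4 on 488 opened and 1518 closed.

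The share of a library's counts in dense stretches was 21.7%, 20.1% and 21.5% with SMARTA cells and 21.6%, 21.7% and 21.9% without, and the groups overlapped. The difference was −0.66 percentage points (two-sided exact permutation test, p = 0.20, where 3 against 3 libraries allow 0.10 at the lowest). Without library 2 with SMARTA cells it was −0.16 points. The most accessible region held a median of 25.9%, 27.9% and 26.3% of its stretch's counts with SMARTA cells and 25%, 24.6% and 24.2% without. All 3 libraries with SMARTA cells were higher, by 2.1 points on average (exact permutation p = 0.10, the lowest possible, and 0.20 after Benjamini-Hochberg adjustment over 6 such measures). It was 1.5 points without library 2 with SMARTA cells.

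Gene starts held 25.1%, 28.6% and 25.7% of the counts in dense stretches with SMARTA cells and 24.8%, 24.4% and 24.3% without (difference 2 points, exact permutation p = 0.10, adjusted 0.20). Outside dense stretches they held 48%, 50.5% and 48.1% with SMARTA cells and 46.1%, 46.8% and 46.5% without (difference 2.4 points, exact permutation p = 0.10, adjusted 0.20). Both differences stand at the lowest p this design allows, and the difference between them was not tested.

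**Figure D5:**
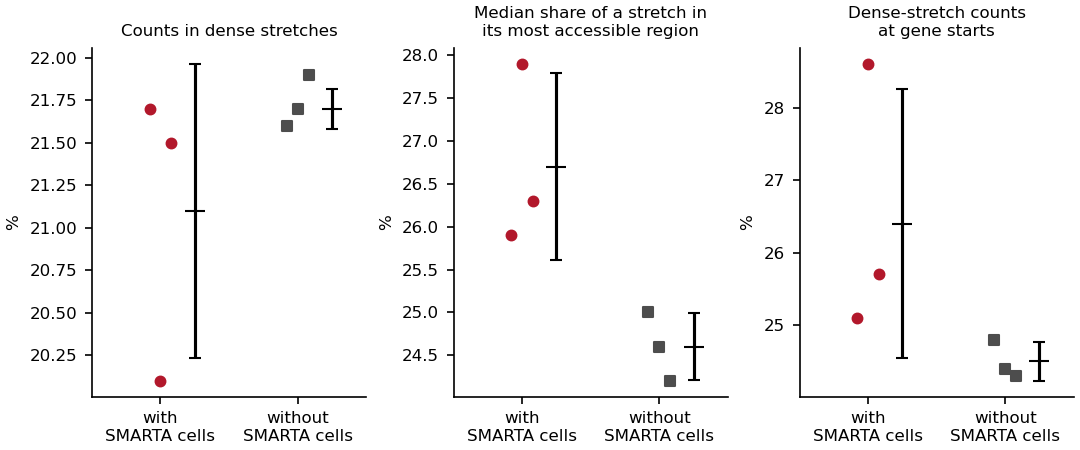
Percent of counts in dense stretches, median percent of a stretch's counts in its most accessible region, and percent of dense-stretch counts at gene starts (y axes), by group (x axis), with 1 symbol per library and the mean with its SD beside them. The axes do not start at 0. Groups overlap in the first panel and not in the other panels, where library 2 with SMARTA cells is highest at 27.9% and 28.6%.

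For each stretch holding both kinds, the summed counts of regions away from gene starts were divided by those at gene starts, a comparison added after the data had been seen. Of 5243 such stretches 2.44% had a higher ratio with SMARTA cells and 8.13% a lower one (limma, adjusted p under 0.05). Among the 574 dense ones 13 (2.26%) were higher and 30 (5.23%) lower, and the median difference was −0.08 (log2) in both sets. The dense stretch with the smallest p was that of Ccr7, the lymph node homing receptor, with a log2 ratio 1.81 higher (adjusted p = 0.0019). The gene start counted there is that of Gm32249, an uncharacterised gene, and not of Ccr7, and it had 3.46, 2.95 and 4.64 CPM with SMARTA cells against 14.7, 12.4 and 16.9 CPM without. At Dnmt3a, a DNA methyltransferase gene, the start was likewise that of the antisense gene Dnmt3aos, with 3.36, 1.86 and 2.88 CPM against 9.61, 13.5 and 14.6 CPM. At Mmd, a membrane protein gene, the ratio was 1.33 lower (adjusted p = 0.0079). Its own start was not called (132, 130 and 115 CPM against 111, 117 and 110 CPM, log2 fold 0.16), while 10 of its 19 regions closed.

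Each library has its own peak list, called by the authors, and 19%, 19.1% and 19.1% of peaks lay in dense stretches with SMARTA cells and 19.1%, 18.5% and 18.8% without. A peak overlapped 87%, 72.9% and 85.7% of dense regions with SMARTA cells and 82.5%, 90.4% and 91.2% without, and the low value is that of the library with the fewest counts. In all 6 lists together 9045 dense regions (62.5%) had a peak, against 58.8% of other regions. Peaks in at least 2 lists of one group and no list of the other were found at 469 dense regions (3.24%) for the group with SMARTA cells and at 1061 (7.33%) for the group without. Outside dense stretches the shares were 3.08% and 8.42%. A region with peaks in one group alone may have entered the count table through that group. The peaks' fold enrichment, the authors' own value, had medians of 3.89 to 4.50 in dense stretches and of 4.24 to 5.6 elsewhere, and the dense median was the lower in all 6 lists.

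At the threshold of 12 regions, the stretches first by position were those of Zap70 (log2 fold −0.16) and Cflar (−0.21) with 12 regions, and of Rnf149 (−0.01) and Spp2 (0.23) with 11, just outside. The 117 stretches of 12 regions opened in 3.85% and closed in 12.2% of their 1404 regions, and the 159 stretches of 11 regions in 4.97% and 13.6% of their 1749.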

How the data were processed

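Open chromatin was measured by ATAC-seq in 6 libraries of sorted OT1 CD8 T cells, 3 from tumors with SMARTA CD4 T cells and 3 from tumors without. The authors deposited 1 table of whole-number read counts per region and 1 peak list per library, whose deposited fold enrichment is a ratio over local background. Tools listed per the submitters' processing notes are DiffBind 3.4.11, MACS2 2.1.1, Picard 2.18.9, SAMtools 1.8 and BWA 0.7.17, with the build GRCm38. No source used here gives the duplicate removal, the transposase shift or how the regions were set. Remaining duplicates would inflate counts, and counting intervals would not cover them.

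Regions were joined by position as the report describes. Regions and summed stretches (all 26120, with the library sizes and TMM factors of the region table) were each tested with edgeR 4.0.16 under R 4.3.3 (filterByExpr, which removed 0 features, glmQLFit, glmQLFTest, no replicate block, Benjamini-Hochberg at 0.05). The biological coefficient of variation was 18.0% for regions and 14.9% for stretches. CPM and log2 CPM (prior count 2) used the TMM factors, and SD and SE are on the log2 scale. Ratios were tested with limma 3.58.1, and single values per library by a two-sided exact permutation test. Adjustment ran over all regions, stretches or ratios. All pairs of libraries differed by more than sampling noise (lowest chi-square per degree of freedom 2.76). The edgeR and limma steps were checked on simulated counts. Alternatives were RLE, total-count, loess and summed-table scaling, DESeq2 1.42.0, filters, a replicate block, each library left out, other gaps and minimum numbers of regions, and sums without some regions.

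A stretch carries the name of the protein-coding gene over most of its regions, or else of the nearest one within 100 kb. Named are the 8 stretches with the most regions, the 8 closed and 8 opened with the smallest p and non-overlapping groups, their regions of smallest p and highest accessibility, the 5 with most regions in the less frequent direction, and up to 4 examples per gene list. Any other name was chosen after its values were seen. The members and lists were chosen with earlier results of these data known. Gene positions, starts and promoters came from RefSeq on GRCm38.p6, and no exons, introns or UTRs were told apart.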

Additional observations from a re-analysis of the deposited data

How the results depend on the processing

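Stitching sets what counts as dense. With a gap of 5 kb 24 regions opened and 121 closed, and 1 stretch opened and 7 closed. With 25 kb 1876 and 4148 regions and 106 and 105 stretches were called. A minimum of 8 regions gave 1180 and 2667 regions and 120 and 164 stretches, and one of 20 gave 300 and 724 regions and 8 and 15 stretches. These settings keep 907 to 38001 regions, and the shares were 2.65% to 5.12% opened and 10.9% to 13.3% closed.

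For stretch sums, opened counts were 35 with total-count scaling, 24 with loess scaling (114 closed), 30 with TMM on the summed table, 32 without regions within 2 kb of a gene boundary, and 83 opened and 27 closed with gene-start regions alone (an alternative chosen after seeing the data). The cause was not tested. Leaving out each library gave 284 to 1045 opened and 968 to 1740 closed regions, and 17 to 85 opened and 27 to 103 closed stretches. The differences in the share of counts in dense stretches ran from -0.96 to -0.16 points and those in the share of the most accessible region from 1.5 to 2.5 points. By library left out, opened stretches were 51, 85 and 26 without library 1, 2 and 3 with SMARTA cells, and 17, 18 and 22 without library 1, 2 and 3 lacking them. Closed stretches were 103, 59 and 27, and 48, 33 and 31, in the same order.

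Deviations from group means correlated at -0.02, -0.078 and 0.076 for same-numbered libraries and at -0.107 to 0.086 for unlike-numbered ones. This check of so few libraries cannot tell paired from unpaired ones, and the labels do not say whether the numbers pair them. With the replicate block 632 dense regions opened and 1543 closed, and 42 stretches opened and 62 closed. DESeq2 called 47 opened and 78 closed stretches, 45 and 70 of them shared with edgeR.

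Of 799 alternative values for 55 named stretches and regions, 759 kept direction and side of the threshold, 22 lost the call, 6 gained one and 12 changed sign, all 12 of uncalled results. These were Itpr1 (-0.02 under loess and without its most accessible region, and -0.01 to 0.19 with a library left out), Ptk2b (-0.12 to 0.06 with a library left out, above 0 at 0.02, 0.01 and 0.06), Btg1 (-0.32 without regions near gene boundaries, -0.07 without its most accessible region), Gimap7 (-0.04 without regions near gene boundaries), Mbnl1 (-0.13 to 0.02 with a library left out), and the most accessible regions of Spock2 (-0.02 to 0.18 with a library left out) and Rarg (-0.01 under loess). Depth limits thin regions most: the Tox region with the smallest p held 13 to 18 reads in each library with SMARTA cells.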
